A study of Mus musculus with 3 samples.

Results

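The constitutive proteasome genes are the 43 mouse genes whose symbols run from Psma to Psmg with a number, that have a protein-coding transcript, and that are not among the 5 interferon-inducible genes Psmb8, Psmb9, Psmb10, Psme1 and Psme2. The pattern itself matched 48 symbols, among 55450 annotated genes and 21938 nuclear protein-coding genes in the gene tables. The rule uses the symbol and the transcript annotation and no measured value. The data are poly(A)+ RNA-seq of 3 samples of bone-marrow-derived macrophages of C57BL/6J mice, all of 1 group. The cells received 100 ng/ml lipid A, the membrane anchor of bacterial lipopolysaccharide, for 12 h, were washed out for 12 h, and received 100 ng/ml again for 180 minutes before collection. Some label fields name the agent lipoprotein A, so the agent is given here as the sample descriptions name it. Untreated macrophages were not analysed here, so the values are levels in treated cells and no change with lipid A was measured. All 3 samples carry the same donor record, with sex and age not collected, so the SD over replicates describes these samples and may be technical.

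The proteasome is the protease that degrades ubiquitin-tagged proteins. Its barrel-shaped core, the 20S particle, stacks outer rings of alpha subunits on inner rings of beta subunits, and the beta subunits encoded by Psmb5, Psmb6 and Psmb7 hold the catalytic sites. The 19S particle caps the core, with a base of ATPases that unfold substrates and a lid that removes ubiquitin. Interferon and inflammatory signals make macrophages replace the catalytic subunits with the inducible subunits of the immunoproteasome, which generates peptides for MHC class I.

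The gene tables held 23373296, 36818023 and 37681634 expected counts in replicates 1, 2 and 3, and the members took 0.437%, 0.415% and 0.426% of them. The 8 macrophage markers examined were all at 1 TPM (a share of all transcripts, corrected for transcript length) or above in every replicate, with a summed level of 15567 to 17466 TPM. The summed level was 4.47 to 17.7 TPM for 8 neutrophil markers, 0.490 to 1.72 TPM for 7 T and NK cell markers, 1.78 to 4.39 TPM for 5 B cell markers and 2.93 to 3.87 TPM for 6 stromal and endothelial markers. Retnlg, a neutrophil gene, had 0 counts in all 3 replicates. The part of these other cells in the member levels was not tested, and in bulk RNA fewer expressing cells and less RNA per cell cannot be told apart.

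Most proteasome genes were expressed at high levels per transcript length. The means of 6 members, Psmg1, Psmg2, Psmg3, Psmd9 and the tissue-restricted Psma8 and Psmb11, lay below the median of expressed genes. Of 43 members, 42 reached 1 TPM in every replicate and 40 reached 10 TPM, against 9729 and 6022 of 21938 nuclear protein-coding genes. The median member level was 117, 109 and 111 TPM in replicates 1, 2 and 3, against 18.01, 18.4 and 17.8 TPM for the 9729 expressed nuclear protein-coding genes. On the log2(TPM + 1) scale the medians were 6.83 ± 0.05 for the members and 4.25 ± 0.02 for the expressed genes (SD, n = 3). The summed member level was 5749, 5401 and 5573 TPM. The members lie on 16 chromosomes, with at most 8 on one of them, chromosome 11.

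Per transcript length, median levels fell from the core to the 19S particle and from there to the assembly chaperones among the members. The 14 core subunits had a median level of 209, 202 and 183 TPM, the 17 subunits of the 19S particle 122, 112 and 124 TPM, and the 7 assembly chaperones 16.8, 17.5 and 18.01 TPM. The core median exceeded the 19S median by 0.73 ± 0.15 on the log2(TPM + 1) scale (SD, n = 3), a 1.65-fold difference. It exceeded the chaperone median by 3.43 ± 0.14, a 10.8-fold difference. Both differences had the same sign in 3 of 3 replicates, for which the exact two-sided sign-flip permutation test gives p = 0.25, the smallest p that 3 samples allow. Without division by transcript length, in CPM (counts scaled by library size) with TMM factors, the core exceeded the 19S particle by only 0.13 and the chaperones by 3.76, so the step from core to 19S particle rests largely on the length scale.

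**Figure D1:**
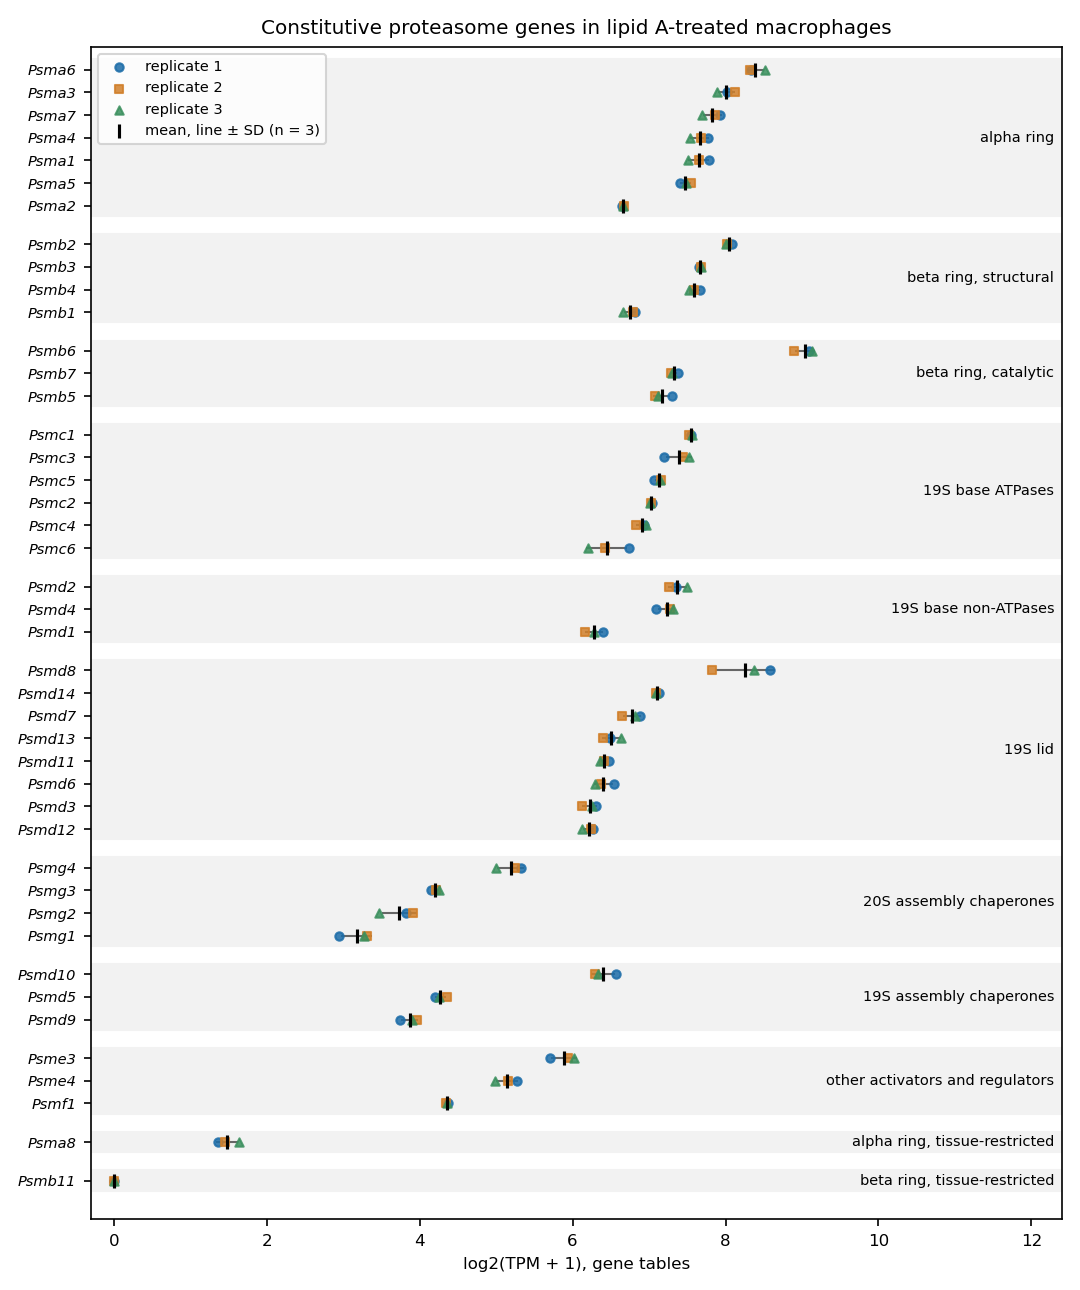
Level of each of the 43 members in each replicate, as log2(TPM + 1) on the x axis, with genes grouped by role down the page; the black tick is the mean and the grey line ± SD (n = 3). The core subunits sit between the means of Psma2 (99.8 TPM) and Psmb6 (527 TPM), and all 7 chaperones lie below every core subunit.

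Among the alpha subunits, which form the gated outer rings of the core, Psma6 was highest at 322, 318 and 364 TPM, and Psma2 was lowest per length at 98.7, 100.6 and 100.1 TPM in replicates 1, 2 and 3. The ranges of Psma6 and Psma2 were far apart on this scale. In CPM, without division by length, Psma6 was again highest, at 171, 170.2 and 192, but Psma2 was second of the 7 in every replicate, at 146, 157 and 159, and Psma7 was lowest, at 108, 101 and 91.1. In the gene tables Psma2 also had the smallest spread of the 14 core subunits, with a coefficient of variation (SD over mean) of 0.984%. That spread is below the 1.44% that counting error alone would give. In the tables made from FASTQ files Psma2 had 72.2, 88.1 and 98.6 TPM.

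The other alpha genes lay between them. Psma3 had 258, 277 and 237 TPM, and Psma7 had 243, 231 and 206 TPM. Psma4 had 217, 204 and 184 TPM, and Psma1 had 219, 199.99 and 181 TPM. These 4 were each lowest in replicate 3, while Psma5, at 168, 185 and 178 TPM, was lowest in replicate 1. Psma1, Psma4 and Psma7 were each highest in replicate 1, and their differences between replicates reached a coefficient of variation of 9.47% for Psma1.

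The 4 beta subunits without catalytic activity covered a narrower band. Psmb2 had 271, 259 and 256 TPM, Psmb3 had 200, 203 and 205 TPM, Psmb4 had 202, 191 and 183 TPM, and Psmb1 had 112, 109 and 99.8 TPM. Psmb1 was below the other 3 in every replicate, and Psmb2 was above them in every replicate. The order of Psmb3 and Psmb4 was not the same in all 3 replicates.

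The 3 catalytic subunits were not equal in level. Psmb6, which carries the caspase-like site, was the highest of all 43 members per length at 545, 475 and 560 TPM in replicates 1, 2 and 3. Psmb5, which carries the chymotrypsin-like site, had 156, 134 and 138 TPM, and Psmb7, which carries the trypsin-like site, had 165, 156 and 156 TPM. Every Psmb6 value lay above every value of Psmb5 and Psmb7. Psmb6 exceeded Psmb5 3.68-fold and Psmb7 3.30-fold per length, with log2 ratios of 1.88 ± 0.12 and 1.72 ± 0.12 (SD, n = 3). In expected counts, with no division by length, the corresponding folds were 3.06 and 1.93. Psmb5 was below Psmb7 in 3 of 3 replicates by a log2 ratio of -0.16 ± 0.07 per length, less than the distance of either from Psmb6. In expected counts the log2 ratio of Psmb5 to Psmb7 was larger, at -0.67 ± 0.08.

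The length scale mattered most where transcripts differ most in length. Psmb6 exceeded Psma2 by a log2 ratio of 2.40 ± 0.14 in TPM but by 0.30 ± 0.16 in expected counts (SD, n = 3). Read numbers for the pair were therefore alike, at 4625, 6316 and 7467 counts for Psmb6 and 3402, 5768 and 6004 counts for Psma2.

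Each catalytic subunit has an inducible counterpart that takes its place in the immunoproteasome: Psmb8 for Psmb5, Psmb9 for Psmb6 and Psmb10 for Psmb7. The 3 pairs did not share a direction. Psmb5 at 156, 134 and 138 TPM stood far below Psmb8 at 710, 659 and 648 TPM. Psmb6 at 545, 475 and 560 TPM stood above Psmb9 at 171, 165 and 159 TPM. Psmb7 at 165, 156 and 156 TPM stood below Psmb10 at 353, 313 and 303 TPM. In none of the pairs did the values of the constitutive and the inducible gene overlap.

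The log2 ratio of Psmb5 to Psmb8 was -2.24 ± 0.05, so that Psmb8 was 4.71-fold higher. The log2 ratio of Psmb6 to Psmb9 was 1.67 ± 0.15, a 3.19-fold higher level of the constitutive gene. The log2 ratio of Psmb7 to Psmb10 was -1.02 ± 0.07 (SD, n = 3 for each ratio), with Psmb10 2.03-fold higher. Each sign held in 3 of 3 replicates, with an exact sign-flip permutation p of 0.25, the smallest possible. In expected counts the Psmb6 to Psmb9 ratio was 1.65-fold, and the other 2 log2 ratios were -2.39 and -0.85. Exons of Psmb9 and of Tap1, on the opposite strand, overlap over 212 bases, and Tap1 stood at 303, 292 and 279 TPM, and whether counting used strand is not given in the sources used here.

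**Figure D2:**
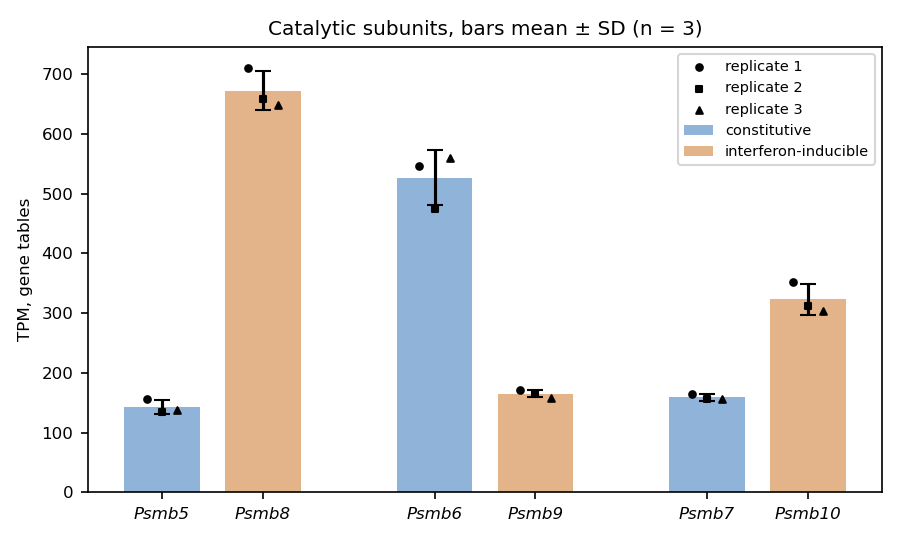
TPM of the 3 constitutive catalytic subunits (blue, left in each pair) and their interferon-inducible counterparts (orange, right); bars are means, error bars ± SD (n = 3), and symbols are replicates. Psmb5 and Psmb7 lie below their counterparts, while Psmb6, at a mean of 527 TPM, lies above Psmb9 at 165 TPM.

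The constitutive catalytic genes had more of their RNA in coding transcripts than the inducible ones. Protein-coding transcripts held 100% of the TPM of Psmb5, 93.5% ± 1.55 of Psmb6 and 99.9% ± 0.0259 of Psmb7, against 75.1% ± 1.18 for Psmb8, 81.7% ± 2.14 for Psmb9 and 68.3% ± 5.50 for Psmb10 (SD, n = 3, alignment tables). With protein-coding transcripts alone the log2 ratios were -1.82 for Psmb5 to Psmb8, 1.87 for Psmb6 to Psmb9 and -0.47 for Psmb7 to Psmb10. The 3 directions were the same, and the Psmb7 to Psmb10 difference was the one that shrank most in proportion. This alternative was chosen after the data were seen.

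The promoters of Psmb6 and Psmb5, whose levels differ most among the catalytic genes, are shown because both hold the core of the antioxidant response element, TGACNNNGC. That element is bound by the transcription factors encoded by Nfe2l1 and Nfe2l2. The Nfe2l1 factor is known to drive proteasome genes when proteasome activity is limiting. The RefSeq windows of assembly GRCm38.p6 are printed from 100 bases before to 20 bases after the annotated start, with the matching bases in capitals. The Psmb6 stretch is chr11:70525257-70525376 on the plus strand and the Psmb5 stretch chr14:54617976-54618095 on the minus strand.
Psmb6: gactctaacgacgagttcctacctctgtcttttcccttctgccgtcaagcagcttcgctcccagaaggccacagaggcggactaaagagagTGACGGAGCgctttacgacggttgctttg
Psmb5: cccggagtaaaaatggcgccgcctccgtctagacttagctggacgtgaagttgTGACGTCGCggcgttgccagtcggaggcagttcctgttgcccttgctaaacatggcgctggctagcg

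The match begins 9 bases before the start of Psmb6 and 47 bases before that of Psmb5. Searched on both strands from 250 bases before to 50 after the start, it was present in 6 of the 35 members with a window, or 17.1%: Psmb5, Psmb6, Psmc6, Psmd9, Psmd12 and Psme4. It was present in 17.2% of 7832 expressed nuclear protein-coding genes and in 12.39% of all 32851 windows. The share among members was thus close to that of expressed genes. A gene counted if any of its windows matched. The 35 members had 37 windows and the 7832 expressed genes 9991, so windows per gene differed for this and the following patterns. A CCAAT box was found in 37.1% of the members and 42.9% of expressed genes, and a kappaB site pattern (GGGA and CC with 4 bases between) in 25.7% and 29.8%. The nuclear respiratory factor pattern (GCGCA and GCGC with 1 base between) was found in 7 members (20.0%) and 13.1% of expressed genes, and the core of the interferon-stimulated response element (GAAA and GAAA with 2 bases between) in 4 members (11.4%) and 4.23%. TGACGTCA, the cAMP response element, was in none of the 35 member windows and in 3.86% of expressed genes. A match is only a match of letters in this window. Nfe2l1 had 205, 143 and 179 TPM and Nfe2l2 had 209, 210 and 193 TPM. Of the genes that process the Nfe2l1 protein, the protease gene Ddi2 had a mean of 10.7 TPM, the deglycosylase gene Ngly1 15.7 TPM, the unfoldase gene Vcp 199 TPM and the ubiquitin ligase gene Syvn1 35.7 TPM.

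In the base of the 19S particle, the 6 ATPases that unfold substrates lay close together, from Psmc6 with a mean of 87.4 TPM to Psmc1 with 186 TPM. Psmc1 had 185, 183 and 189 TPM, and Psmc6 had 105, 84.6 and 72.4 TPM in replicates 1, 2 and 3. Psmc6 was the ATPase that varied most, with its highest value in replicate 1 and a coefficient of variation of 19.03%. In the gene tables Psmc2 varied least of all members, at 130, 129 and 128 TPM, or 0.884%. That spread is below the 1.53% that counting error alone would give. In the tables made from FASTQ files Psmc2 had 86.8, 111 and 124 TPM. Psmc3 had 145, 174 and 183 TPM, and was lowest in replicate 1. Psmc4 and Psmc5 had means of 119 and 139 TPM.

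The non-ATPase base subunits were Psmd1 and Psmd2, the large scaffolds of the base, and Psmd4, a ubiquitin receptor. Psmd2 had 162, 152 and 180 TPM, Psmd4 had 136, 154 and 158 TPM and Psmd1 had 83.4, 70.7 and 76.6 TPM. Psmd1 was below both others in every replicate. Psmd2 stood among the members with the most reads, at 6824, 10390 and 12631 expected counts.

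The lid was lower than the ATPases of the base, by less without division by length. The median over 8 lid genes was 90.5, 83.4 and 89.97 TPM, below the ATPase median of 132, 135 and 134 TPM in 3 of 3 replicates, and the ATPases exceeded the lid by 0.60 ± 0.08 on the log2(TPM + 1) scale (SD, n = 3). On the log2(CPM + 1) scale the difference was 0.26 ± 0.08 (SD, n = 3), with the same sign in 3 of 3 replicates, a value computed after the data were seen. Psmd14, the metalloprotease that cuts ubiquitin from substrates, had 138, 136 and 136 TPM, and its inactive partner Psmd7 had 117, 99.6 and 111 TPM. The structural lid genes Psmd3, Psmd6, Psmd11, Psmd12 and Psmd13 had means between 73.1 TPM (Psmd12) and 90.2 TPM (Psmd13). One lid gene stood apart from the others: Psmd8 had 381, 226 and 331 TPM, above every other 19S gene per length in each replicate.

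Psmd8 was also the member whose replicates differed most, with a coefficient of variation of 25.4%, and replicate 2 held its lowest value. The same replicate was lowest in the tables made from FASTQ files, at 257, 191 and 309 TPM in replicates 1, 2 and 3. One protein-coding transcript, Psmd8-202, held 97.8% ± 0.265 of the gene's TPM in the alignment tables (SD, n = 3). Replicate 2 also held the highest levels of the neutrophil genes Ngp and Ltf. Ngp had 7.78 TPM against 0.390 and 0.280 TPM, and Ltf 1.73 TPM against 0.140 and 0 TPM. Camp, Mmp8 and Mpo were highest there too, Mpo at 0.180 TPM against 0.170 and 0 TPM. Elane and Prtn3 were highest in replicate 3, at 0.110 and 0.300 TPM, and Retnlg had 0 counts in every replicate. The part of neutrophil RNA in the Psmd8 value was not tested.

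The 7 assembly chaperones among the members, which help the particles form and are absent from the finished proteasome, were lower than the core. The chaperones of the core were Psmg4 with 39.2, 37.0 and 30.9 TPM, Psmg3 with 16.8, 17.5 and 18.01 TPM, Psmg2 with 13.1, 14.04 and 10.1 TPM, and Psmg1 with 6.71, 8.93 and 8.66 TPM. Psmg1 rested on 83, 177 and 173 expected counts. The chaperones of the base were Psmd10, also known as gankyrin, with 94.2, 77.1 and 79.4 TPM, Psmd5 with 17.4, 19.5 and 18.1 TPM, and Psmd9 with 12.43, 14.6 and 13.9 TPM. Psmd10 was the only one of the 7 chaperones above 50 TPM, within the range of the lid genes. Pomp, a further core chaperone outside the symbol rule, had 399, 556 and 492 TPM, 13.5-fold above Psmg4 per length.

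Among the other activators and regulators, Psme3 encodes a nuclear activator ring that opens the core without ATP, Psme4 a large single-chain activator, and Psmf1 a regulator first described as an inhibitor. Psme3 had 51.0, 60.5 and 64.0 TPM, Psme4 had 37.6, 34.6 and 30.7 TPM, and Psmf1 had 19.8, 19.3 and 19.4 TPM. The order Psme3, Psme4, Psmf1 held in every replicate with no overlap. Psme3 stood below Psme1, an inducible activator subunit at 601, 547 and 578 TPM, by a log2 ratio of -3.30 ± 0.22 in TPM and -1.81 ± 0.25 in expected counts (SD, n = 3 for each).

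The 2 tissue-restricted members were near or at the floor of detection. Psma8, the alpha subunit of spermatogenic cells, had 1.56, 1.74 and 2.12 TPM from 22, 47 and 57 expected counts, with exact 95% Poisson intervals of 13.8 to 33.3, 34.5 to 62.5 and 43.2 to 73.9 counts. The FASTQ-made tables gave Psma8 0.681, 1.44 and 1.74 TPM, and over coding transcripts alone it had 0.550, 1.32 and 1.67 TPM. Its closest relative Psma7 stood at 243, 231 and 206 TPM. Psmb11, the beta subunit of thymic cortical epithelium, had 0 counts in all 3 gene tables, for which a floor of 3 counts is 0.128, 0.0815 and 0.0796 CPM in replicates 1, 2 and 3, and the exact 95% Poisson interval used for Psma8 reaches 3.69 counts. The FASTQ-made tables gave it 2.07, 4.84 and 3.17 estimated counts, or 0.116, 0.0378 and 0.0275 TPM. These intervals and floors cover counting error only.

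Ordered by mean TPM, few neighbours were separated. Of 42 neighbouring pairs of members, 18 had the same order in all 3 replicates, and in 12 the ranges of the 2 genes did not overlap. Psmb6 was apart from Psma6 at the top, and Psma7 from Psmb3. At the foot of the particle genes, Psmd12 was apart from Psme3, and below it Psme3 from Psmg4 and Psme4 from Psmf1. From Psmb3 at a mean of 203 TPM down to Psmd14 at 137 TPM no neighbours were separated.

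The rank order of the members was nonetheless nearly the same in each library. Spearman's rho across the 43 genes was 0.986 to 0.991 between replicates, and 0.967 to 0.979 across the 31 genes of the core and 19S particle alone. Across the 9729 expressed nuclear protein-coding genes it was 0.978 to 0.983. Genes are not independent replicates, and the libraries share their gene models and lengths.

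The spread between replicates was small for genes of this level. The 31 core and 19S genes had a median coefficient of variation of 7.70%, and 28 of them (90.3%) were under 10%. Among 1517 nuclear protein-coding genes in the same range of mean TPM, the members included, the median was 10.4% and 47.4% were under 10%. Psmd8, Psmc6 and Psmc3 were the 3 core and 19S genes above 10%. Over all 42 detected members the median was 7.98% and none exceeded 30%.

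The size of the spread differed between the tables and between sets of replicates. With 1 replicate left out, a value rests on 2 samples and is not directly comparable with one over 3. In the FASTQ-made tables the 31 genes had a median of 14.9%, beside 18.9% for 1558 genes in their range. Without replicate 1 the values were 5.66% and 6.94%, without replicate 2 they were 6.05% and 9.35%, and without replicate 3 they were 4.55% and 9.75%. The members' median was thus the lower one in each of these. In CPM it was 7.04% beside 10.6%.

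**Figure D3:**
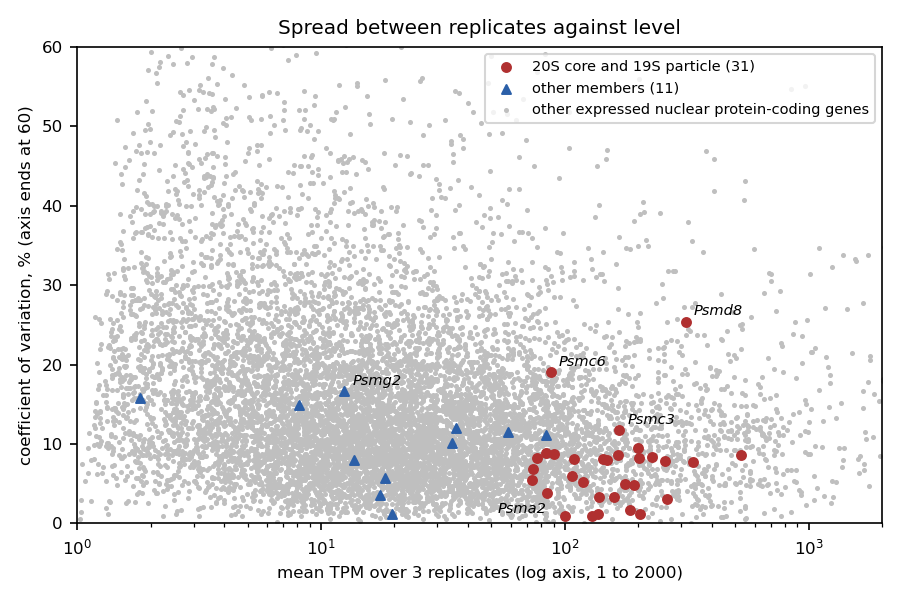
Coefficient of variation over 3 replicates (y axis, in %, ending at 60) against mean TPM (log x axis) for the 31 core and 19S genes (red), 11 other detected members (blue triangles) and the other expressed nuclear protein-coding genes (grey); genes beyond the axes are not drawn. Most red points lie under 10%, with Psmd8 at 25.4% and Psmc6 at 19.03% above them.

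In the gene tables the proteasome genes as a group differed little between replicates. The median difference of the 43 members from their own mean of log2(TPM + 1) was 0.03 in replicate 1, 0 in replicate 2 and -0.0027 in replicate 3. Members above their own mean numbered 26, 21 and 20. Core and 19S genes did not move alike: in replicate 3 the core had a median of -0.04 with 5 of 14 genes above their mean, and the 19S particle 0.02 with 10 of 17 above. The 7 chaperones had 6 genes above their mean in replicate 2, with a median of 0.08.

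In the FASTQ-made tables the members did differ between libraries, with median shifts of -0.19, 0.03 and 0.20 in replicates 1, 2 and 3. The ratio of the FASTQ-made to the gene table value had a median over 42 members of 0.683, 0.845 and 0.944, and over 9723 expressed genes of 0.715, 0.879 and 0.982. The 2 tables were therefore apart by library for expressed genes in general. Within a library the members kept their rank across the tables, with Spearman's rho of 0.994 to 0.996 across 43 genes.

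**Figure D4:**
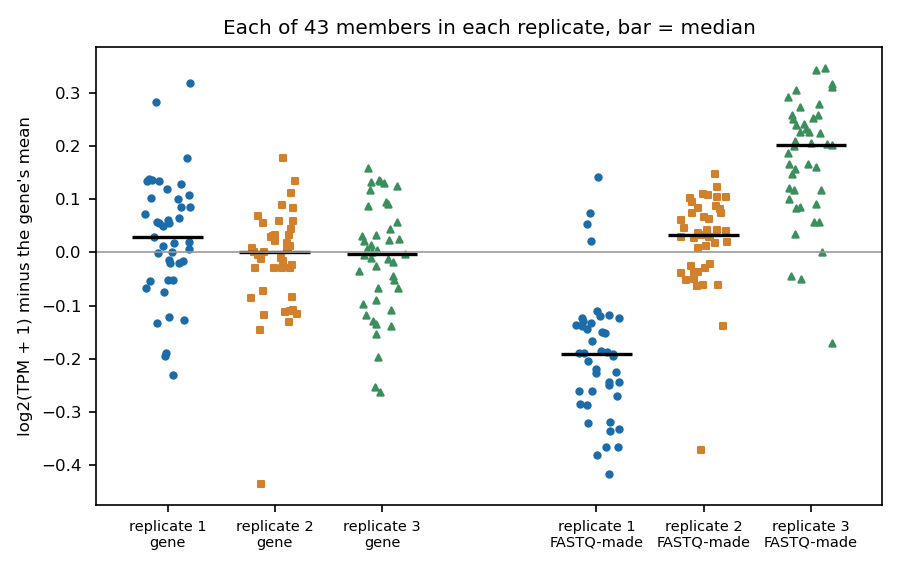
Each point is 1 of the 43 members, and the y axis is its log2(TPM + 1) minus the gene's own mean over 3 replicates, in the gene tables (left) and the FASTQ-made tables (right); black bars are medians. The medians lie at 0.03, 0 and -0.0027 on the left and at -0.19, 0.03 and 0.20 on the right.

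Most proteasome RNA was annotated as protein coding. The members have 229 annotated transcripts, of which 94 are protein coding. In the FASTQ-made tables, protein-coding transcripts held 90.3%, 92.3% and 93.6% of the summed member TPM in replicates 1, 2 and 3. Retained-intron transcripts held 5.91%, 4.36% and 3.40% there, and transcripts annotated as targets of nonsense-mediated decay 2.52%, 2.49% and 2.37%. The most abundant transcript was protein coding for 41 of 42 detected members, in both the FASTQ-made and the alignment tables. At least 90% of the TPM was in coding transcripts for 36 members in both. Psma3, Psmd13 and Psma8 were under 75% in both.

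**Figure D5:**
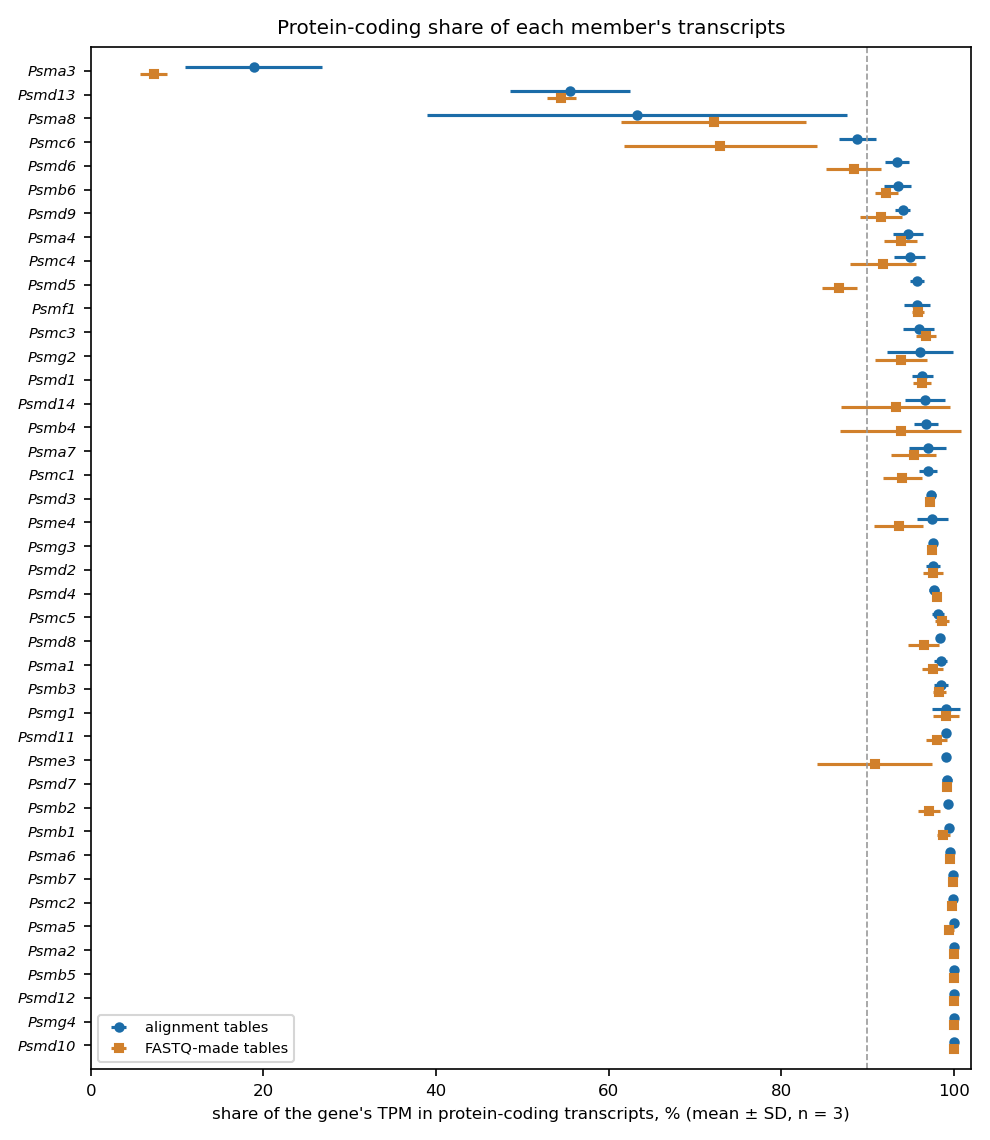
Share of each detected member's TPM in protein-coding transcripts (x axis, in %, mean ± SD, n = 3) in the alignment tables (blue circles) and the FASTQ-made tables (orange squares); the dashed line marks 90%. Psma3 lies lowest in both, at 18.9% and 7.26%, followed in the alignment tables by Psmd13 at 55.5%.

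Psma3 was the exception, and the junction that sets 2 of its transcripts apart is shown here. Psma3-202 is the full-length coding model, and Psma3-201, annotated as a decay target, lacks its first 5 bases of exon 3 (chr12:70983319-70983323). Psma3-203 is annotated as a retained-intron transcript. The junction is printed from the GENCODE M21 transcript, on the plus strand of GRCm38, with the 5 bases in capitals and 25 bases on each side.
Psma3-202: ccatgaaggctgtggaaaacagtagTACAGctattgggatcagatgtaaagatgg

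In the FASTQ-made tables Psma3-203 held 46.8%, 46.9% and 42.8% of the gene's TPM and Psma3-201 held 40.9%, 41.6% and 43.6%. In the alignment tables the shares were 37.1%, 30.6% and 28.2% for Psma3-203 and 50.3%, 41.1% and 45.3% for Psma3-201. The 2 noncoding models led in every replicate of both kinds of table. Psma3-201 was the higher of them in all 3 replicates of the alignment tables, but in replicate 3 alone of the FASTQ-made ones. Psma3-202 held 2.88% to 4.09% in the FASTQ-made tables and 3.34% to 4.25% in the alignment tables. Psma3-204, a coding model of 859 bases, held 6.47%, 21.7% and 17.3% in the alignment tables and 1.70%, 3.48% and 4.81% in the FASTQ-made ones. Counted over coding transcripts alone, Psma3 had 25.7, 69.5 and 51.0 TPM, against 258, 277 and 237 TPM over all of its transcripts.

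The Psma3 models differ in more than this junction. Psma3-202 spans 2846 bases, with 1955 bases after its last coding base. Psma3-203 spans 1027 bases and Psma3-201 spans 875 bases. Both end before the end of Psma3-202, at positions 70994501 and 70994475 against 70996347. Of the 31-base sequences in Psma3 transcripts, 20.3% also occur elsewhere, chiefly with the processed pseudogene Gm13835, which was listed at 17.5, 9.45 and 8.71 TPM. The part of model length or of the pseudogene in these shares was not tested.

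Psmd13, a lid subunit, also had a large noncoding share. Its exon 3, of 35 bases at chr7:140886388-140886422 on the plus strand of GRCm38, is printed in capitals with 20 bases of exon 2 before it and of exon 4 after it, because Psmd13-211, annotated as a decay target, skips it.
Psmd13-201: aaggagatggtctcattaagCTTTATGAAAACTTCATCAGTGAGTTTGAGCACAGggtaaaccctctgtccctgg

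Psmd13-211 held 36.0%, 34.7% and 33.7% of the gene's TPM in the FASTQ-made tables, and 28.4%, 32.6% and 32.8% in the alignment tables. The coding Psmd13-201 held 46.4%, 49.5% and 55.4% in the FASTQ-made tables, and 53.8%, 45.7% and 37.3% in the alignment tables. The SD over replicates was smaller for the skipping model than for the coding one, at 1.11 and 4.60 percentage points in the FASTQ-made tables and 2.45 and 8.28 in the alignment tables. Psmd13 had 56.5, 43.8 and 49.6 TPM over coding transcripts alone, against 89.0, 82.9 and 98.7 TPM over all. The Psmd13 models differ in more than the skipped exon. Psmd13-201 spans 1989 bases, with 504 bases before its first coding base and 357 bases after its last. Psmd13-211 spans 1096 bases. It starts at position 140882472 against 140881968 for Psmd13-201, and ends at 140898288 against 140898642. The part of model length in the Psmd13 shares was not tested.

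Other members divided their RNA between coding models. Psmc3-210 held 38.7% ± 10.5 of Psmc3 and Psmc3-202 held 56.9% ± 8.57 in the alignment tables. Psma2-202 held 27.0% ± 4.34 of Psma2 beside 73.0% ± 4.34 in Psma2-201 (SD, n = 3 for each). For Psmc6 the coding share differed between tables, at 88.8% ± 2.13 in the alignment tables and 73.0% ± 11.2 in the FASTQ-made ones.

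Sequence shared with other genes limits some members. At least 10% of 31-base sequences were shared with another gene in 11 of 43 members, and at least 50% in 2. Psmb5 shared 71.7%, mostly with the processed pseudogene Gm3375, which was listed at 0.430, 0.460 and 0.0800 TPM. Psma5 shared 61.0%, mostly with Gm8394, at 1.71, 1.66 and 1.34 TPM. The 2 partners were listed at little beside Psmb5 and Psma5, and how the authors' counting divided the shared reads is not given in the sources used here. Among pseudogenes named after members, Psmb5-ps, Psmb6-ps and Psmb6-ps2 had 0 TPM in every replicate and Psmb7-ps2 reached 0.140 TPM in replicate 2 alone. Psmb7 overlaps Nek6 over 405 exonic bases on the opposite strand, with Nek6 at 16.9, 8.82 and 15.9 TPM, and Psmc3 overlaps Slc39a13 over 215, with Slc39a13 at 40.8, 41.2 and 28.9 TPM. Exonic overlap on the opposite strand was found for 8 members in all, and without stated strand use their reads cannot be told apart there.

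Genes of proteins that work with the particle were expressed as well. The ubiquitin receptor Adrm1 had 88.9, 82.4 and 87.0 TPM, and the lid component Sem1 had 104, 98.4 and 76.0 TPM. The deubiquitinases Usp14 and Uchl5 had means of 57.05 and 25.6 TPM, below all core and 19S genes. Of the 5 shuttle factors that carry ubiquitinated proteins to the particle, all were above 10 TPM, from Ubqln2 at 13.7 to Rad23b at 73.3 TPM. The 6 other proteasome-associated genes examined had means from 9.31 TPM (Ube3c) to 94.1 TPM (Txnl1).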

How the data were processed

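Poly(A)+ RNA from 3 samples of 1 group was measured; per the labels, library input was 1 µg and fragments ran from 250 to 400. Per the file headers, the authors' gene and transcript tables from a transcriptome alignment give expected counts with TPM; the FASTQ-made transcript tables give estimated counts with TPM. Assembly mm10 and annotation M21 are those of the deposited tables; programs, versions and strand use: not given in the sources used here. Genes were matched to GENCODE M21 by identifier, leaving out entries with 0.124% to 0.194% of counts that matched none. Levels are deposited TPM, logged with a pseudocount of 1 TPM. TPM of the FASTQ-made tables were summed per gene. Expected counts were rounded for TMM (edgeR 4.0.16) and DESeq2 1.42.0 size factors over 12018 genes in R 4.3.3; other steps used Python 3.11.15, pandas 2.3.3, numpy 2.4.6 and scipy 1.17.1. Expressed means at least 1 TPM in every replicate. Shift and spread functions were tested on simulated data. A count of 0 allows up to 3 counts. All members are named by role, with fuller values for core subunits, catalytic pairs and the extremes of each role; members, lists and roles were chosen with earlier results of these data known. Promoters matched 35 of 43 members in RefSeq tables (GRCm38.p6); those of Psma8, Psmb1, Psmb2, Psmb7, Psmc3, Psmd3, Psmd7 and Psmg2 were not used here. With 1 group, no test between conditions and no paired fit was made. Some items are not reported here.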

Additional observations from a re-analysis of the deposited data

How the results depend on the processing

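The count of members at 1 TPM, the differences between the core and the other groups, the 3 catalytic ratios and the count of coding-led members kept their direction under every alternative run for them. Their size did not always hold: in TMM-scaled CPM the core exceeded the 19S particle by 0.13 against 0.73 in TPM, and Psmb6 exceeded Psmb9 by 0.73 against 1.67, while Psmb7 to Psmb10 was -0.47 over coding transcripts against -1.02 (log2). The count of members at 1 TPM was 42. It was 41 in the FASTQ-made tables, over protein-coding transcripts only, and at 1 CPM in TMM-scaled CPM. The median member level on the log2 scale was 6.83, and 6.55 in the FASTQ-made tables, 6.70 in TMM-scaled CPM, 6.98 in TPM rescaled to nuclear protein-coding genes and 6.71 over protein-coding transcripts only, the last chosen after seeing the data. The median coefficient of variation, 7.98%, was 15.1% in the FASTQ-made tables. It was 4.61% to 7.31% when 1 replicate was left out, lowest without replicate 1 and 5.10% without replicate 3. Those values rest on 2 samples and are not directly comparable with one over 3. The median shift was 0.03, 0 and -0.0027 in replicates 1, 2 and 3. It was -0.191, 0.0331 and 0.202 in the FASTQ-made tables, 0.0550, -0.0218 and 0.0177 with TMM, and 0.0568, -0.0249 and 0.0189 with DESeq2 size factors, so the small shifts of replicates 1 and 3 changed sign with the FASTQ-made tables and that of replicate 3 also with TMM and DESeq2. The cause of these differences was not tested. No paired analysis was possible because the labels give 1 group. With 3 samples no sign-flip test can pass 0.05, and counting error limits Psma8 and Psmb11.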
